A study of Mus musculus with 17 samples.

Results

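The interleukin-1 family and interleukin-16 were followed in the frontal cortex of adult mice whose mothers had received an immune stimulus in pregnancy. The genes were chosen by name: Il1a, Il1b, Il18, Il33 and Il16 (ligands), Il1r1 and Il1rap (receptor chains) and Il18bp (soluble inhibitor). All 8 were found among the 48440 genes of the deposited table, and 6 of them were among the 14144 genes abundant enough to test. The animals were male C57BL/6J offspring aged 189 postnatal days. In 1 group (9 libraries) the dams had been injected intraperitoneally with 20 mg/kg Poly(I:C), a synthetic double-stranded RNA that mimics viral infection, on gestational day G12.5. In the other (8 libraries) the dams had been given saline. Whole frontal cortex was taken, so every value is a mixture over all its cell types. The labels mention 11 dams, fewer than the 17 offspring, but do not tie offspring to litters. If all offspring came from these dams, some were littermates. Littermates were treated as independent animals, so p-values measure the spread between these animals only and may be too small.

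The interleukin-1 cytokines are early messengers of innate immunity. IL-1α and IL-1β bind the receptor IL-1R1, which then recruits the accessory chain IL-1RAP and starts a relay through MyD88, IRAK kinases and TRAF6 to NF-kB. IL-1β and IL-18 are made as inactive precursors that caspase-1 cuts inside inflammasomes. IL-18 is neutralised by the secreted binding protein IL-18BP. IL-33 is a nuclear alarmin released from damaged cells, and in the brain and spinal cord it is known from oligodendrocytes and astrocytes. IL-16 is not related to the IL-1 fold: it is released from a larger precursor, its secreted part binds CD4, and a longer neuronal form is known.

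Abundance was given as TPM (transcript abundance as a share of the library, a unit corrected for transcript length that keeps no library depth). Cortical excitatory neuron markers were measured for 10 of 10 genes, and their mean lay between 6.43 and 6.66 on the log2(TPM + 1) scale in all 17 libraries. The dissection was meant to leave out the olfactory region and the putamen, per the labels. Poly(I:C) replicate 7 had the highest mean of the striatal markers (4.14, against 3.07 to 3.59 in the other libraries of its group) and of the oligodendrocyte markers (6.30, against 5.48 to 5.85 in the saline libraries). Saline replicate 7 had the highest mean of the olfactory bulb markers (3.25, against 1.78 to 2.06 in the other saline libraries). None of 10 marker lists differed between the groups by exact permutation, the adjusted p of all 10 being 0.923. The microglial list spanned 4.65 to 4.79 in the Poly(I:C) group and 4.57 to 4.80 in the saline group. Of 11 blood leukocyte markers 3 were measured.

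The 8 genes differed widely in abundance. Il33 was highest at 18.0 ± 3.02 TPM (SD, n = 17), followed by Il1rap at 14.45 ± 0.968 TPM and Il18 at 13.9 ± 1.66 TPM. Il33 lay above Il1rap in 16 of 17 libraries, whereas Il1rap lay above Il18 in only 11, so that these neighbours did not separate beyond their spread. Il18bp came next at 5.18 ± 1.18 TPM and lay below Il18 in 17 of 17 libraries. Il16 (1.11 ± 0.310 TPM) and Il1r1 (1.10 ± 0.228 TPM) could not be ordered, with Il16 the higher in 7 of 17 libraries. Both classical IL-1 ligands were at the bottom, Il1a at 0.536 ± 0.131 TPM and Il1b at 0.161 ± 0.108 TPM, and Il1a exceeded Il1b in 17 of 17 libraries. Among the tested genes, Il33 stood at the 57.2 percentile of mean TPM and Il16 at 1.80.

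**Figure D1:**
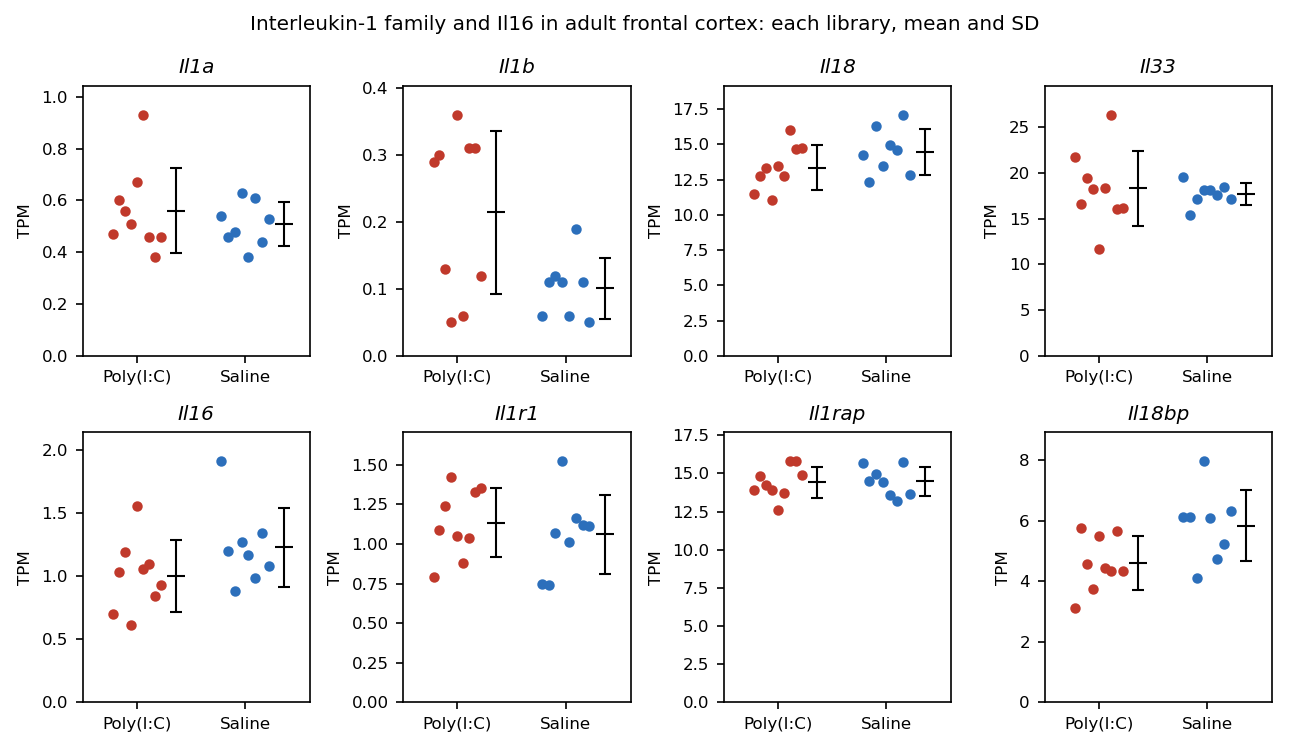
TPM of each gene (vertical axes, starting at 0 and scaled separately) in the 9 Poly(I:C) libraries (red) and the 8 saline libraries (blue), with the group mean and SD as black bars. Il1b is split within the Poly(I:C) group between 5 libraries at 0.29 TPM or more and 4 at 0.13 TPM or less. Il18bp has a lower mean in the Poly(I:C) group, with overlapping values and a limma adjusted p of 0.511. Il33 ranges more widely in the Poly(I:C) group than in the saline group, a difference in spread that was not tested.

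No gene of the table passed an adjusted p of 0.05 as deposited (limma with Benjamini-Hochberg adjustment, 0 of 14144, or 0%), and none of the 6 tested members did. At an unadjusted p under 0.05 there were 1237 genes in either direction, 8.75% of those tested, and the Mann-Whitney test gave 0 after adjustment and 1096 before it. Of the 6 tested members 1, Il18bp, was under that unadjusted threshold. Without both replicates 7, whose markers stood apart, 0 genes passed and 5.79% were under the unadjusted threshold (4.91% lower, 0.884% higher). Lower values in the Poly(I:C) group were found for 4 of 6 members by sign, beside 71.0% of all tested genes (66.6% without both replicates 7). This split moved with scaling. Median-of-ratios scaling, which levels the median gene between libraries, left 3 of 6 members and 50.9% of all genes lower, with 7.34% of genes under the unadjusted threshold (3.46% lower, 3.87% higher). With it 2 genes (0.0141%) passed the adjustment when the scaling factors came from the tested genes, and 0 passed when they came from all genes above 0 in every library. No member was among the 2, and the first gene set is used below. It was chosen after both results were seen. The groups overlapped for each of the 8 members. Without overlap were 4 of the 14144 genes, or 0.0283%.

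Il1b, the inflammasome-processed ligand, was low in every library. In the Poly(I:C) group it ran from 0.05 to 0.36 TPM with a median of 0.29, and in the saline group from 0.05 to 0.19 TPM with a median of 0.11. Replicates 1, 2, 5, 7 and 8 of the Poly(I:C) group held 0.29, 0.30, 0.36, 0.31 and 0.31 TPM, above all 8 saline libraries. Replicates 3, 4, 6 and 9 held 0.13, 0.05, 0.06 and 0.12 TPM, within the saline range. The group means were 0.214 ± 0.122 (SD, n = 9) and 0.101 ± 0.0455 TPM (SD, n = 8), a ratio of 2.12. The difference on the log2(TPM + 1) scale was 0.14, with a two-sided exact permutation p of 0.0285 over 24310 splits, unadjusted. In limma without a filter on low values its adjusted p was 0.730 over 26534 genes. The exact permutation p rose to between 0.0507 and 0.0539 when Poly(I:C) replicate 1, 2, 5, 7 or 8 or saline replicate 1, 5 or 8 was left out. Values are rounded to 0.01 TPM by the authors, and the read numbers behind them are unknown. The antisense gene Il1bos, which overlaps 25 exonic bases of Il1b, stood at 0.0867 ± 0.110 (SD, n = 9) and 0.0663 ± 0.0555 TPM (SD, n = 8), and its part in the result was not tested.

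Il1a, the ligand that is active without processing by caspase-1, ran from 0.38 to 0.93 TPM around a median of 0.51 in the Poly(I:C) group. In the saline group it ran from 0.38 to 0.63 TPM around a median of 0.505. Poly(I:C) replicates 6 (0.93 TPM) and 5 (0.67 TPM) were above the saline libraries, and the other 7 were within their range. Its difference of 0.044 on the log2(TPM + 1) scale had an unadjusted exact permutation p of 0.493, and without Poly(I:C) replicate 6 the difference was 0.0045. Poly(I:C) replicate 6, the highest for Il1a, was among the lowest of its group for Il1b (0.06 TPM). Replicate 5, next for Il1a, was the highest for Il1b (0.36 TPM). The correlation of Il1a with Il1b was not computed. Both genes lie on chromosome 2 of GRCm38 (the assembly mm10 also names), Il1a from 129299610 to 129309972 and Il1b from 129364570 to 129371139, each on the minus strand and each protein-coding.

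Il18, the second inflammasome substrate, ran from 11.05 to 15.99 TPM (median 13.31) in the Poly(I:C) group and from 12.35 to 17.08 TPM (median 14.4) in the saline group. Poly(I:C) replicates 1 and 4 lay below the saline range and saline replicates 3 and 7 above the Poly(I:C) range, with the others overlapping. The means were 13.4 ± 1.59 (SD, n = 9) and 14.5 ± 1.63 TPM (SD, n = 8). The limma difference was -0.11 ± 0.072 (SE), with a 95% interval of -0.26 to 0.040 and an adjusted p of 0.656. Il18 (chromosome 9, 50554827 to 50581840) overlaps the carotenoid dioxygenase gene Bco2 on the other strand without sharing exonic bases.

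Il18bp, the decoy that binds IL-18, had the smallest p of the 6 tested members. It ran from 3.13 to 5.75 TPM (median 4.45) in the Poly(I:C) libraries and from 4.09 to 7.95 TPM (median 6.11) in the saline libraries. None of the 9 Poly(I:C) values reached the saline median, 5 of 8 saline libraries lay above the highest Poly(I:C) library, and saline replicate 4 was the highest at 7.95 TPM. The means were 4.60 ± 0.886 (SD, n = 9) and 5.83 ± 1.17 TPM (SD, n = 8), a ratio of 0.790. The limma difference was -0.28 ± 0.11 (SE) with a 95% interval of -0.51 to -0.057, an unadjusted p of 0.0166 and an adjusted p of 0.511, which did not pass. Its p ranked 455 among the 14144 genes. Lower values with an unadjusted p under 0.05 were found for 7.85% of all genes as deposited. After median-of-ratios scaling the difference was -0.25 with an adjusted p of 0.658. Il18bp (chromosome 7, 102014885 to 102018690, minus strand) shares 80 exonic bases with Numa1, a mitotic spindle gene on the plus strand. Numa1 stood at 42.0 ± 2.93 (SD, n = 9) and 45.0 ± 2.70 TPM (SD, n = 8), with a limma difference of -0.099 and an adjusted p of 0.566. Whether the authors counted by strand is not given in the sources used here, and the part of Numa1 in the Il18bp value was not tested.

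The ratio of Il18 to Il18bp within a library does not depend on scaling. It ran from 2.22 to 3.70 (median 2.91) in the Poly(I:C) group and from 1.69 to 3.98 (median 2.39) in the saline group, the highest and the lowest value both being saline. In the Poly(I:C) group 8 of 9 ratios exceeded the median ratio of the saline group. The difference in the log2 ratio was 0.22 with an unadjusted exact permutation p of 0.199, and with single libraries left out it ran from 0.14 (without saline replicate 4, p = 0.383) to 0.32 (without saline replicate 3, p = 0.0541). It was 1 of 3 ratios computed, all chosen after the values were seen. The ratio of Il1a to Il1b had a log2 difference of -0.79 (exact permutation p = 0.136).

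Il33, the alarmin, was the most abundant member. Its values ran from 11.71 to 26.35 TPM (median 18.24) in the Poly(I:C) group and from 15.40 to 19.58 TPM (median 17.8) in the saline group. Poly(I:C) replicates 7 (26.35 TPM) and 1 (21.80 TPM) lay above the saline range, replicate 5 (11.71 TPM) lay below it, and the other 6 lay within it. The means were 18.3 ± 4.09 (SD, n = 9) and 17.7 ± 1.22 TPM (SD, n = 8), with a limma difference of 0.021 ± 0.10 (SE), a 95% interval of -0.19 to 0.23 and an adjusted p of 0.960. The sign of this difference turned with single libraries: it was -0.045 without Poly(I:C) replicate 7, -0.013 without Poly(I:C) replicate 1 and -0.0055 without saline replicate 2. The coefficient of variation was 22.4% in the Poly(I:C) group, 17.1% there without replicate 7, and 6.89% in the saline group. It was higher in the Poly(I:C) group for 59.4% of all tested genes, and the difference in spread was not tested for Il33.

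**Figure D2:**
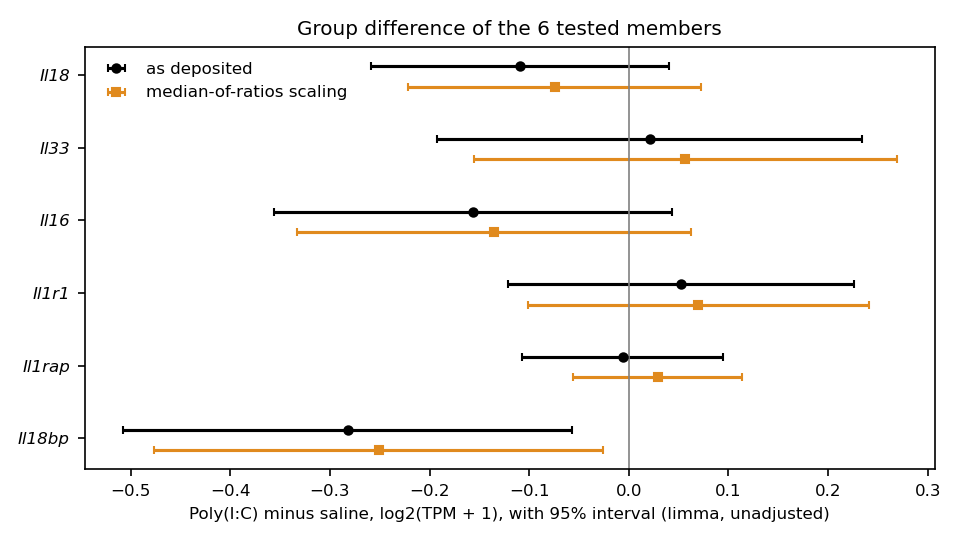
Difference between the groups (horizontal axis, Poly(I:C) minus saline in log2(TPM + 1)) for the 6 tested members, with 95% limma intervals not adjusted for the number of genes, as deposited (black circles) and after median-of-ratios scaling (orange squares). The Il18bp interval of -0.51 to -0.057 is the only one of the 6 as deposited that leaves out 0, and its adjusted p was 0.511.

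Il33 varied between libraries together with oligodendrocyte genes. After the group means were subtracted, Pearson's r between Il33 and the mean of 12 oligodendrocyte markers was 0.88 over 17 libraries (permutation p = 0.00016, adjusted p = 0.0096 over 60 relations between members and marker lists). Spearman's rho was 0.72 (permutation p = 0.0019, adjusted p = 0.0792), so that only Pearson's r passed the adjustment. Without Poly(I:C) replicates 7 and 5, the farthest from the median of the markers, r was 0.60 over 15 libraries (permutation p = 0.0171). Within the Poly(I:C) group r was 0.91 (exact permutation p = 0.00230, adjusted p = 0.00691 over the 3 library sets, n = 9) and rho was 0.73 (exact permutation p = 0.0311, adjusted p = 0.0934). Within the saline group r was 0.67 (exact permutation p = 0.0624, adjusted p = 0.0624, n = 8) and rho was 0.64 (exact permutation p = 0.0962, adjusted p = 0.115). These sets are parts of the same 17 libraries in which this relation had the highest r of the 60. The adjustment over the 3 sets does not cover that choice, so the values within groups are a description and not a separate test. In Poly(I:C) replicate 7 myelin basic protein (Mbp), the most abundant of the markers, stood at 1966 TPM, where the other libraries of its group lay between 962 and 1336 TPM and the saline libraries between 1026 and 1334 TPM. The same library had the highest mean of the striatal markers (4.14), and the part of the dissection in this relation was not tested. In bulk tissue, more cells of a type and more RNA per cell cannot be told apart.

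**Figure D3:**
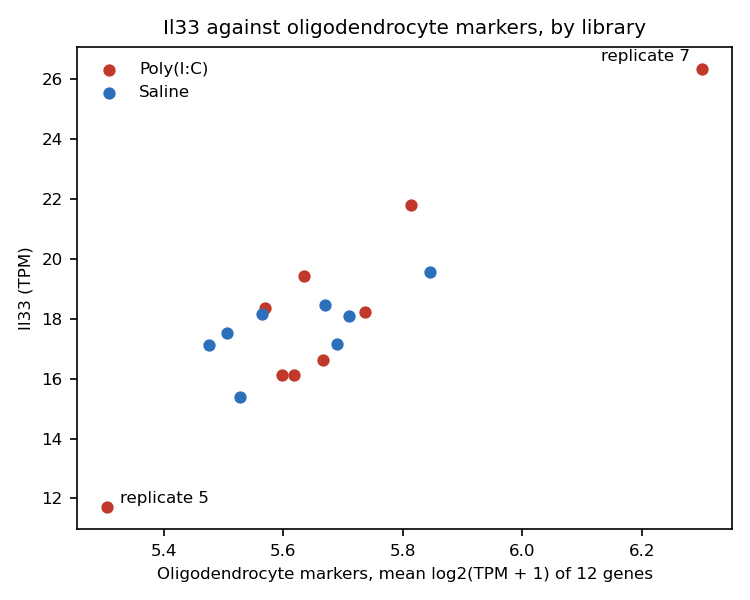
Il33 in TPM (vertical axis, not starting at 0) against the mean log2(TPM + 1) of 12 oligodendrocyte markers (horizontal axis), 1 point per library, Poly(I:C) in red and saline in blue. Poly(I:C) replicates 7 and 5 form the upper and lower ends, at 26.35 and 11.71 TPM, and Pearson's r falls from 0.88 to 0.60 without them.

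The 2 genes whose pattern over the 17 libraries was most like that of Il33 were Tspan2 (r = 0.93, rho = 0.74), a tetraspanin of oligodendrocytes, and Cnp (r = 0.91, rho = 0.75), which encodes a myelin enzyme and is itself 1 of the 12 markers. They were picked as the highest of 14144 genes, so no p is given. In Poly(I:C) replicate 7 Cnp stood at 88.76 TPM and in replicate 5 at 43.41 TPM, with the saline libraries between 52.92 and 67.2 TPM. The start-site windows of Il33 and Cnp are shown because these genes moved together; genes and motifs were picked after that was seen. RefSeq (GRCm38.p6) gives 2 windows for Il33, whose transcripts the table sums into 1 value, and 1 for Cnp. Each window is on the plus strand and covers 300 bases. Capitals mark matches on either strand to ACAAAG (a Sox core), CAGCTG (an E-box) or CTGGNAC (a loose form of the Myrf core). Sox, E-box and Myrf motifs are bound by oligodendrocyte transcription factors. N stands for any base, so CTGGNAC also takes in letters outside the Myrf core.
Il33, chr19:29924863-29925162: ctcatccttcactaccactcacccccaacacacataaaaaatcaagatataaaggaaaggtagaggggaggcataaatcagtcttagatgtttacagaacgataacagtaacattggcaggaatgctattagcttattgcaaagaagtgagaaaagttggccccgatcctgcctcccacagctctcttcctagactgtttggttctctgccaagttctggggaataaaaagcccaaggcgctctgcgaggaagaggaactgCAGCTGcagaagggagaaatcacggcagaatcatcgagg
Il33, chr19:29945540-29945839: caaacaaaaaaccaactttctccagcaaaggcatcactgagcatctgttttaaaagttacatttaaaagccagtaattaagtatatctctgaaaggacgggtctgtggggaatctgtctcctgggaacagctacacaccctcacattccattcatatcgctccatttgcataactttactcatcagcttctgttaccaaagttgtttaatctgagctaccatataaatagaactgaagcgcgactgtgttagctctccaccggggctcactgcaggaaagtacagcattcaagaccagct
Cnp, chr11:100574689-100574988: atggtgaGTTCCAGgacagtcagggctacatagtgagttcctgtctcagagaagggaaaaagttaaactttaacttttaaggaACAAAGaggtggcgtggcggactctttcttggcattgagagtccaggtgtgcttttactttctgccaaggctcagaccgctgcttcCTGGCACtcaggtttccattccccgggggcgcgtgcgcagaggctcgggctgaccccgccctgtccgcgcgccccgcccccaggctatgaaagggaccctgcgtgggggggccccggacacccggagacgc
The upstream Il33 window held 1 CAGCTG, the downstream one held none of the 3 motifs, and the Cnp window held 1 ACAAAG and 2 CTGGNAC. Of 32817 such windows of all genes 18.7% held ACAAAG, 16.3% CAGCTG and 19.3% CTGGNAC, and a match describes the letters only.

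Among the other relations of members to cell type markers, 0 of 59 passed the adjustment over the 60. Il33 had r = 0.74 with striatal markers (permutation p = 0.00216, adjusted p = 0.0648), of which Ppp1r1b is the most abundant at 86.4 TPM. Spearman's rho for this relation was 0.69 (permutation p = 0.00264, adjusted p = 0.0792), and r was 0.61 without Poly(I:C) replicates 7 and 4. With inhibitory neuron markers, led in abundance by Sst at 843 TPM, r was 0.63 for both Il33 and Il1rap (permutation p = 0.00941 and 0.00563, adjusted p = 0.113 and 0.101). For these rho was 0.45 and 0.54 (permutation p = 0.0723 and 0.0268, adjusted p = 0.394 and 0.366), and r was 0.40 and 0.36 when Poly(I:C) replicate 5 was dropped together with the saline replicate 7 library. Il1rap had r = 0.61 with oligodendrocyte markers (permutation p = 0.00673, adjusted p = 0.101) and rho = 0.49 (permutation p = 0.0485, adjusted p = 0.368), and r was 0.33 without Poly(I:C) replicates 7 and 5. No member reached an absolute Pearson's r of 0.6 over 17 libraries with microglial, astrocyte, endothelial, meningeal or blood markers. For Il1r1 and the 3 measured blood leukocyte markers this depended on 2 libraries. Over all 17 libraries r was 0.44 (permutation p = 0.0766, adjusted p = 0.437) and rho was 0.63 (permutation p = 0.00765, adjusted p = 0.153), neither passing. Without saline replicate 2 and Poly(I:C) replicate 4, the farthest from the median of these markers, r was 0.82 (permutation p = 0.0002, unadjusted) and rho 0.91. The 2 farthest libraries were left out in this way for all 60 relations, and this r was the largest that resulted, so it was picked after it was seen. Saline replicate 2 had the highest blood marker mean (2.17) and the lowest Il1r1 (0.74 TPM).

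**Figure D4:**
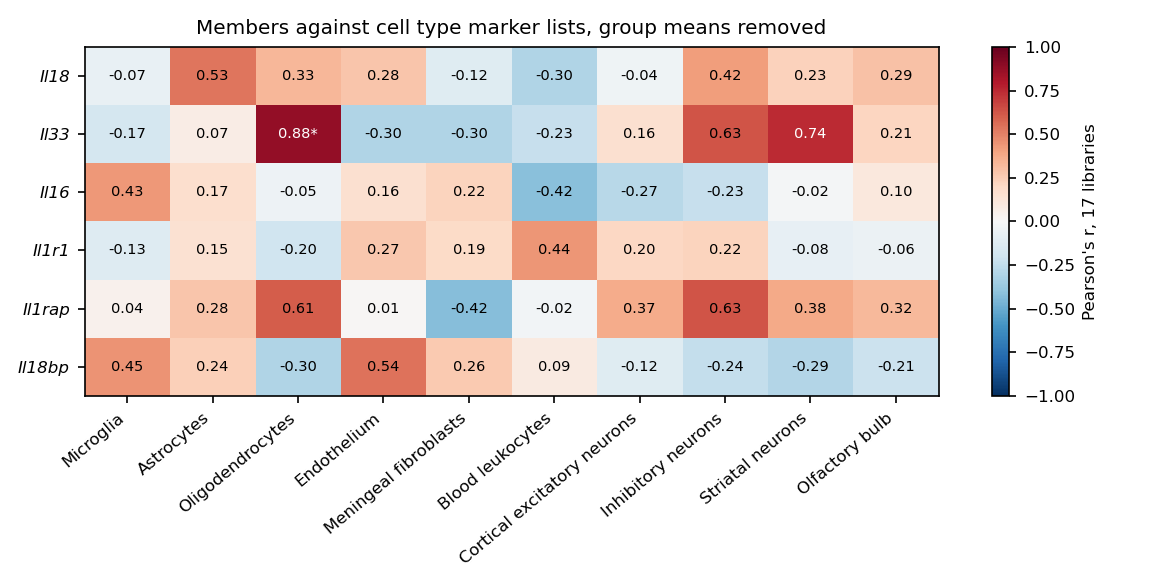
Pearson's r over 17 libraries between each tested member (rows) and the mean of each cell type marker list (columns) after subtraction of the group means, with red for positive and blue for negative r. The asterisk marks the 1 of 60 relations with an adjusted p under 0.05, Il33 with oligodendrocyte markers at 0.88.

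Il1rap, the shared accessory chain of the IL-1 and IL-33 receptors, had the smallest coefficient of variation of the members in each group (7.10% and 6.70%). It ran from 12.63 to 15.79 TPM (median 14.23) in the Poly(I:C) group and from 13.18 to 15.77 TPM (median 14.5) in the saline group, and Poly(I:C) replicate 5 was the lowest. The means were 14.4 ± 1.02 (SD, n = 9) and 14.5 ± 0.970 TPM (SD, n = 8). The limma difference was -0.0062 ± 0.048 (SE) with a 95% interval of -0.11 to 0.095 and an adjusted p of 0.977, and its sign turned after median-of-ratios scaling, to 0.029. Il1rap covers chromosome 16 from 26581704 to 26730117. The gene has 7 annotated transcripts, and a gene-level value does not separate its membrane-bound and soluble forms.

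Il1r1, the ligand-binding chain, ran from 0.79 to 1.42 TPM in the Poly(I:C) group and from 0.74 to 1.52 TPM in the saline group, around a median of 1.09 TPM in each. Saline replicates 1 and 2 were the lowest and saline replicate 4 the highest, and the groups overlapped over the whole Poly(I:C) range. The means were 1.13 ± 0.218 (SD, n = 9) and 1.06 ± 0.248 TPM (SD, n = 8), with a limma difference of 0.052 ± 0.083 (SE), a 95% interval of -0.12 to 0.23 and an adjusted p of 0.864. Single libraries left out moved this difference between 0.018 (without saline replicate 2) and 0.095 (without saline replicate 4), and it was 0.020 without saline replicate 1. Per transcript length, Il1rap exceeded Il1r1 in 17 of 17 libraries, by a mean ratio of 13.1 ± 2.53 (SD, n = 9) in the Poly(I:C) group and 14.4 ± 3.94 (SD, n = 8) in the saline group (exact permutation p = 0.492 on the log2 ratio). Il1r1 covers chromosome 1 from 40225080 to 40317257.

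Il16, the CD4 ligand, ran from 0.61 to 1.56 TPM (median 1.03) in the Poly(I:C) group and from 0.88 to 1.91 TPM (median 1.19) in the saline group. Poly(I:C) replicates 4, 1 and 8 lay below the saline range, and saline replicate 1 stood above all others at 1.91 TPM. The means were 1.00 ± 0.282 (SD, n = 9) and 1.23 ± 0.312 TPM (SD, n = 8), a ratio of 0.815. The limma difference was -0.16 ± 0.096 (SE) with a 95% interval of -0.36 to 0.043 and an adjusted p of 0.639. Leaving out saline replicate 1 gave -0.10. Il16 (chromosome 7, 83642825 to 83745726, minus strand) shares 1202 exonic bases with the lipid-transfer gene Stard5 on the plus strand. Stard5 stood at 2.31 ± 0.603 (SD, n = 9) and 2.51 ± 0.310 TPM (SD, n = 8), so reads of the 2 genes could be mixed where strand was not used in counting.

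None of the 15 pairs among the 6 tested members passed the adjustment for correlation. The highest were Il16 with Il18bp (r = 0.54, permutation p = 0.0260, adjusted p = 0.296) and Il18 with Il1rap (r = 0.51, permutation p = 0.0394, adjusted p = 0.296). Their rho was 0.44 in both cases (permutation p = 0.0813 and 0.0808, adjusted p = 0.605), and r was 0.56 and 0.42 without the 2 libraries farthest from the median of the first gene. The genes most like the other members over 17 libraries, given without a p because they were picked as the highest, were Gm13306 (r = 0.79) and Ttc23 (r = 0.79) for Il18. For Il16 they were P4ha2 (r = 0.85) and Zfyve19 (r = 0.84). For Il1r1 they were 4930412C18Rik (r = 0.79) and Phf12 (r = 0.79). For Il1rap they were Gtf3c6 (r = 0.83) and Lin52 (r = 0.81), and for Il18bp Ago3 (r = 0.80) and Edrf1 (r = 0.79). Their rho ran from 0.73 for 4930412C18Rik to 0.89 for Gtf3c6.

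The partners of these cytokines were followed in 6 further lists of 58 genes, of which 57 were found and 38 could be tested. Of the 38 genes 2 were lower and 0 higher in the Poly(I:C) group at an unadjusted limma p under 0.05, beside 7.85% lower and 0.898% higher among all tested genes, and 0 passed the adjustment. Lower by sign were 27 of 38, beside 71.0% of all genes, and 18 of 38 after median-of-ratios scaling, beside 50.9%. Their median difference was -0.031, against -0.035 over all tested genes.

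Several other receptors of the family stayed below 1 TPM in every library. Il18r1 and Il18rap, the chains of the IL-18 receptor, reached at most 0.09 and 0.14 TPM and were listed at 0 in 7 and 8 of 17 libraries. Il1rl1, which encodes the IL-33 receptor ST2, ran from 0.01 to 0.35 TPM. The decoy receptor Il1r2 stood at 0.323 ± 0.217 (SD, n = 9) and 0.208 ± 0.0950 TPM (SD, n = 8), and the IL-36 receptor Il1rl2 at 0.401 ± 0.149 and 0.454 ± 0.105 TPM. The IL-1 receptor antagonist Il1rn was listed at 0 in 16 of 17 libraries. None of the 5 further ligands and antagonists found in the table could be tested, the highest value being 0.21 TPM for Il1f10 in 1 library.

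Of the receptor list 3 of 8 genes were tested, with a median difference of -0.14 (-0.11 after median-of-ratios scaling), 0 under an unadjusted p of 0.05 in limma and 0 after adjustment. Il1rapl1, an accessory-like protein of synapses and the most abundant of the 3, stood at 3.65 ± 0.418 (SD, n = 9) and 4.21 ± 0.637 TPM (SD, n = 8), with a limma difference of -0.16, an unadjusted p of 0.0526 and an adjusted p of 0.571. Its relative Il1rapl2 had a difference of -0.14 (limma adjusted p = 0.576), and Sigirr, an inhibitory receptor, 0.034. Of the inflammasome and processing list 9 of 14 genes were tested, with a median difference of -0.0074 (0.028 after median-of-ratios scaling) and 0 under an unadjusted p of 0.05. Its most abundant gene by the mean of all libraries was the channel Panx1, at 19.9 ± 1.78 (SD, n = 9) and 19.2 ± 2.75 TPM (SD, n = 8), although the NLRP3-binding kinase Nek7, at 19.4 and 19.5 TPM, was above it in the saline mean. Caspase-1 (Casp1) stood at 1.55 ± 0.455 and 1.64 ± 0.314 TPM, and Nlrp3, which was below the filter, at 0.230 ± 0.103 and 0.403 ± 0.234 TPM. These 2 genes were named for their role in cutting IL-1β and IL-18.

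The relay from MyD88 to TRAF6 was tested for 15 of 17 genes, with a median difference of -0.035 (0.0018 after median-of-ratios scaling) and 0 under an unadjusted p of 0.05. The kinase Map2k4 was the most abundant at 102 ± 8.99 (SD, n = 9) and 105 ± 7.87 TPM (SD, n = 8). At the NF-kB end 9 of 10 genes were tested, with a median of -0.034. The scaffold Ikbkg (-0.22 ± 0.091, adjusted p = 0.545) and the feedback inhibitor Tnfaip3 (-0.17 ± 0.069, adjusted p = 0.534) were the 2 with an unadjusted limma p under 0.05 (0.0268 and 0.0203), and neither passed. The most abundant gene there was the inhibitor Nfkbib, at 35.0 ± 1.37 and 34.4 ± 1.78 TPM. Of the IL-16 list the tetraspanin Cd9 had a limma difference of 0.0099, with 28.3 ± 1.92 (SD, n = 9) and 28.3 ± 3.98 TPM (SD, n = 8). Cd4 was below the filter, with a median of 1.04 TPM in the Poly(I:C) group and 0.915 TPM in the saline group. It stood highest at 3.43 TPM in Poly(I:C) replicate 7, the library with the highest striatal and oligodendrocyte marker means. The lowest Poly(I:C) library held 0.76 TPM, and the saline libraries held 0.77 to 1.06 TPM. Cd4 was named after its values were seen.

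**Figure D5:**
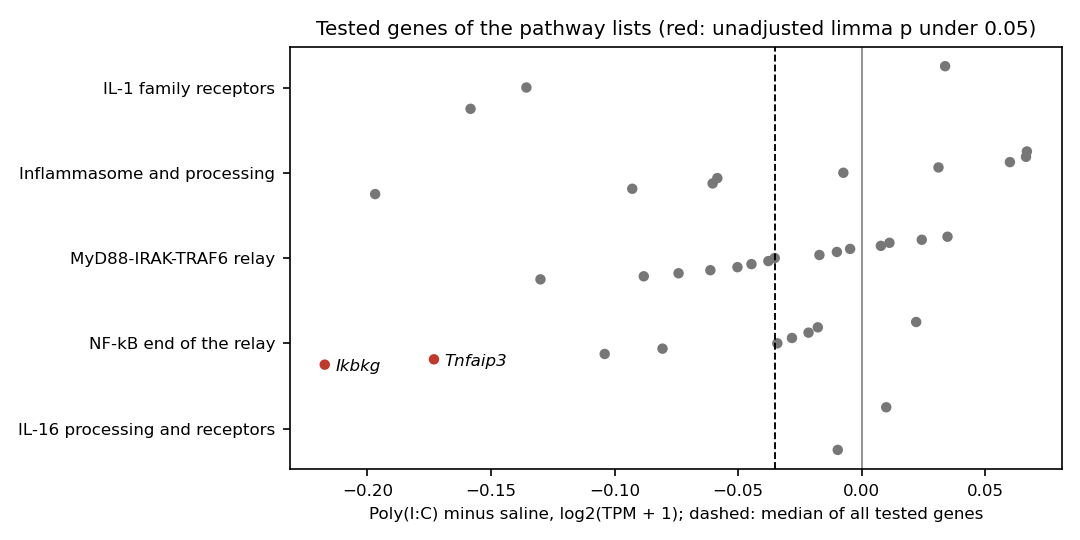
Difference between the groups (horizontal axis, Poly(I:C) minus saline in log2(TPM + 1)) for the 38 tested genes of 5 pathway lists (rows), 1 point per gene, spread vertically by rank only. The dashed line is the median of all 14144 tested genes (-0.035), and the 2 red points, Ikbkg and Tnfaip3, are those with an unadjusted limma p under 0.05.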

How the data were processed

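RNA of frontal cortex from 17 mice was sequenced from strand-specific poly(A) libraries as 100 bp single-end reads, per the labels' protocols, which state 25 M reads. The authors deposited TPM per gene, rounded to 2 decimals. The submitters' processing notes list the tools RSEM 1.2.31, STAR 2.5.1b and Trim Galore 0.4.0 and the build mm10. The annotation release and the strand setting of the counting step were not given in the sources used here. TPM keeps no depth, so no count model or interval of counts was used.

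Symbols were matched by identifier without version (48058 of 48440), and columns to samples by description. The 8 members, the gene lists and the tests were chosen with earlier results of these data known. Genes reaching 1 TPM in 8 or more libraries entered a two-sided limma test (limma 3.58.1, R 4.3.3, trend) on log2(TPM + 1), a scale that understates changes of low genes, with Benjamini-Hochberg adjustment over 14144 genes. Members below that filter and marker list means were compared by exact permutation in Python 3.11.15 (scipy 1.17.1), and correlations with 100000 permutations. In 5 simulations of this comparison (14144 genes, 50 changed at each fold) limma called 59.6% of 1.2-fold and 95.6% of 1.5-fold changes, and 5.26% of calls were false. The simulated errors were normal and independent between genes and libraries, with the residual SD of each gene. Folds were added on the log2(TPM + 1) scale, where a low gene needs a larger fold in TPM for the same step. Litters, outlying libraries and relations between genes were not simulated, so these shares do not give the power in the data. Median-of-ratios scaling was first computed over all genes above 0 in every library (0 genes passing) and then over the tested genes (2 passing). The second was kept after both results were seen, because earlier results of these data used it. Alternatives were pseudocounts, filters, scalings, robust eBayes, the rank test, the replicate block and libraries left out. Genes named were the members, pathway genes by unadjusted p (at most 4 a list) or abundance, the most abundant marker of lists with an absolute r of at least 0.6 to a member, and the 2 genes most like each member. Other pathway genes, overlapping genes and Mbp values were added outside that rule, for their role or after their values were seen. Overlaps come from GENCODE M21 on GRCm38. BLAST 2.17.0 at 97% identity found copies of member transcripts only in genes that overlap them. Of the 58 pathway names, 1 was not matched. The values of 1 pathway gene that the naming rule picks are not reported here.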

Additional observations from a re-analysis of the deposited data

Results flagged for a closer look

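Of 36 group-by-measure sets (8 members and 10 marker lists in both groups), 5 held a library far from the others of its group, where chance alone flags about 1 in 20. For Il16, saline replicate 1 stood at 1.91 TPM, with the other saline libraries between 0.88 and 1.34 TPM. Among the marker lists, as mean log2(TPM + 1), Poly(I:C) replicate 7 was high for striatal neurons at 4.14, and saline replicate 7 was high for the olfactory bulb at 3.25. Saline replicate 6 was low for cortical excitatory neurons at 6.43, with the other saline libraries between 6.54 and 6.61. Poly(I:C) replicate 5, the library with the lowest Il33, was low for inhibitory neurons at 5.72, with the others of its group between 5.85 and 5.98.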

How the results depend on the processing

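Il18, Il16, Il18bp, Il1r1 and Il1a kept the direction of their difference under every alternative run, and no tested member passed the adjusted threshold in any limma or rank alternative. For Il18bp the adjusted p ran from 0.340 to 0.847 over these, and its difference from -0.34 (without saline replicate 3) to -0.22 (without saline replicate 4). Its exact permutation p of 0.0290, at a difference of -0.28, is unadjusted. Il33 turned to -0.037 without both replicates 7 and ran from -0.045 to 0.093 with single libraries left out. Il1rap turned to 0.029 with median-of-ratios, 0.028 with upper-quartile and 0.035 with quantile scaling and to 0.028 in the rank test (share of library pairs minus 0.5), and ran from -0.024 to 0.016 with single libraries left out. Il1b was 0.12 without both replicates 7 (exact permutation p = 0.0653) and ran from 0.11 to 0.16 with single libraries left out. Over all genes above 0 in place of the tested genes, median-of-ratios scaling gave 0.030 for Il1rap. The number of genes passing was 2 with median-of-ratios scaling over tested genes and 0 over all genes above 0, a choice of gene set made after both results were seen. It was 2 with the replicate block, which was fitted without Poly(I:C) replicate 9, and 0 to 1 with single libraries left out (1 without saline replicate 4). Marker list differences near 0 changed sign after median-of-ratios scaling: microglia 0.033, astrocytes 0.029 and endothelium 0.021. Microglia stood at 0.0030 without both replicates 7. The cause of these changes was not tested. With the replicate block the Il18bp difference was -0.27 with a limma adjusted p of 0.590, and no member changed its call. That fit left out Poly(I:C) replicate 9, which has no saline library of the same number. The numbers share no stated litter or day, 0 of 8 same-numbered pairs had deviations correlated above 0.1, and 1 of 8 Poly(I:C) libraries correlated best with its own number. The depth of each library is unknown, so no counting error can be given for Il1b and Il1a. Without both replicates 7, 6 of 8 members kept their rank by mean TPM. These ranks, the ratio of Il18 to Il18bp and the correlations of Il33 within groups were examined after seeing the data.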
